A study of Mus musculus with 7 samples.

Results

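The genes for potassium channels and for the related HCN channels were compared in ribosome-bound RNA of wild-type and nm3888-/- Purkinje cells. Genes whose symbol begins with Kcn or Hcn were taken, without antisense and pseudogene names, if they had 10 or more counts in each of at least 3 of the 7 libraries. This left 67 of 94 genes considered: 20 voltage-gated (Kv) subunits, 8 silent Kv subunits, 5 calcium- or sodium-activated (KCa and Slo) subunits, 10 inward rectifiers (Kir), 11 two-pore-domain (K2P) subunits, 3 HCN subunits and 10 auxiliary subunits. In all, 56 of the 67 genes reached 10 counts in all 7 libraries, and 65 had enough counts for the test between genotypes (Kcnk6 and Kcns3 did not). The 27 genes left out included Kcna3, Kcnq1, Kcnj4, Kcnn4 and Kcnmb2.

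The nm3888 mutation arose spontaneously in NOD mice and disrupts a brain transcript of Rreb1, which encodes a zinc finger transcription factor. Cerebella of 3 wild-type mice (Rpl22 fl/+ with PCP2-Cre) and of 4 nm3888-/- mice (homozygous for the mutation, also Rpl22 fl/+ with PCP2-Cre) were used at 3 weeks of age, with 1 mouse per library. Both genotypes thus carry the RiboTag, an HA-tagged ribosomal protein switched on by Cre, here under a Purkinje cell promoter, and ribosomes with their mRNA were recovered with an antibody to the tag. The library names fall into a first series (wild types 1 and 2, mutants 1 and 2), all female by the labels, and a second series of wild type 3 (female) with mutants 3 and 4 (male).

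Potassium channels let potassium leave the cell and so set the resting potential, end each action potential and limit how often a neuron fires. Kv channels open on depolarization, KCa channels on a rise in calcium, Kir channels pass current best near rest, K2P channels leak, and HCN channels, which carry sodium as well as potassium, open on hyperpolarization. Purkinje cells fire fast and without input, and are known for their Kv3 channels, which make the action potential brief, and for their large-conductance BK channel. Silent Kv subunits form no channel alone but join Kv2 subunits.

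Total counts ranged from 18023017 to 107937386, and the channel genes took 0.523 to 0.705% of them. The alignments came from Bowtie2 in the first series and from STAR in the second series by the file headers, so the series was a term in each test. All 10 Purkinje cell markers were present in every library, 0 of them were called different between genotypes by edgeR or DESeq2 (2 at an unadjusted p under 0.05, median log2 fold change 0.08), and their summed level was 24500 to 43400 TPM in wild types and 24500 to 50400 TPM in mutants. TPM is the count per exon length, scaled per library, and is used wherever genes are compared in level. Markers of granule cells, all 9 present, summed to 176 to 261 TPM in wild types and 250 to 820 TPM in mutants, so RNA of other cells was also recovered. Of these granule cell markers 0 were called by edgeR or DESeq2, with 5 higher at an unadjusted p under 0.05. All 9 had positive fold changes, with a median log2 fold change of 0.56. Of 12 oligodendrocyte markers, summing to 256 to 439 TPM in wild types and 348 to 890 TPM in mutants, 2 were called higher by edgeR and 4 by DESeq2, with 8 higher and 1 lower at an unadjusted p under 0.05. None of either list was at 0 in any library. Markers of interneurons (6, median log2 fold change 0.41) and microglia (7 of 9 tested, median 0.64, 1 gene at 0 in a library) had 0 calls by edgeR. At an unadjusted p under 0.05, 3 interneuron markers were higher, and 4 microglia markers were higher and 1 lower, while DESeq2 called 0 and 1 higher. Their summed levels were 9.07 to 13.5 and 9.79 to 29.7 TPM in wild types and 11.1 to 24.3 and 11.4 to 42.3 TPM in mutants. The part of these other cells in the results was not tested. The count of Rreb1 covers all of its transcripts and was not lower in the mutants. It was 16.5 ± 1.81 CPM (SD, n = 3) in wild types and 18.5 ± 5.46 CPM (SD, n = 4) in mutants, which gives no check of the labels. CPM are counts scaled to the TMM-normalized library size. The paper reports that mutant cerebellum lost the main Rreb1 transcript, and that a probe for all transcripts gave no signal in mutant brain. The counts here did not show such a loss, and the reason was not tested.

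Among the channel genes reported here, the silent subunit gene Kcng4 was the highest in wild-type Purkinje cells, at 1100 ± 95.8 TPM (SD, n = 3). Next was Kcna6, a Kv1 subunit, at 315 ± 27.4 TPM. Neighbours below these lay closer than their spread: Kcnip4 (224 ± 23.8 TPM), Kcnab2 (212 ± 46.3 TPM) and Kcnip1 (200 ± 53.7 TPM), all auxiliary subunits, did not differ beyond the SD over mice. The same was true of Kcnma1, the BK pore subunit (172 ± 7.13 TPM), and Hcn2 (170 ± 47.7 TPM). In all, 11 of the 67 genes were at 100 TPM or more, 26 at 10 TPM or more and 20 under 1 TPM.

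**Figure D1:**
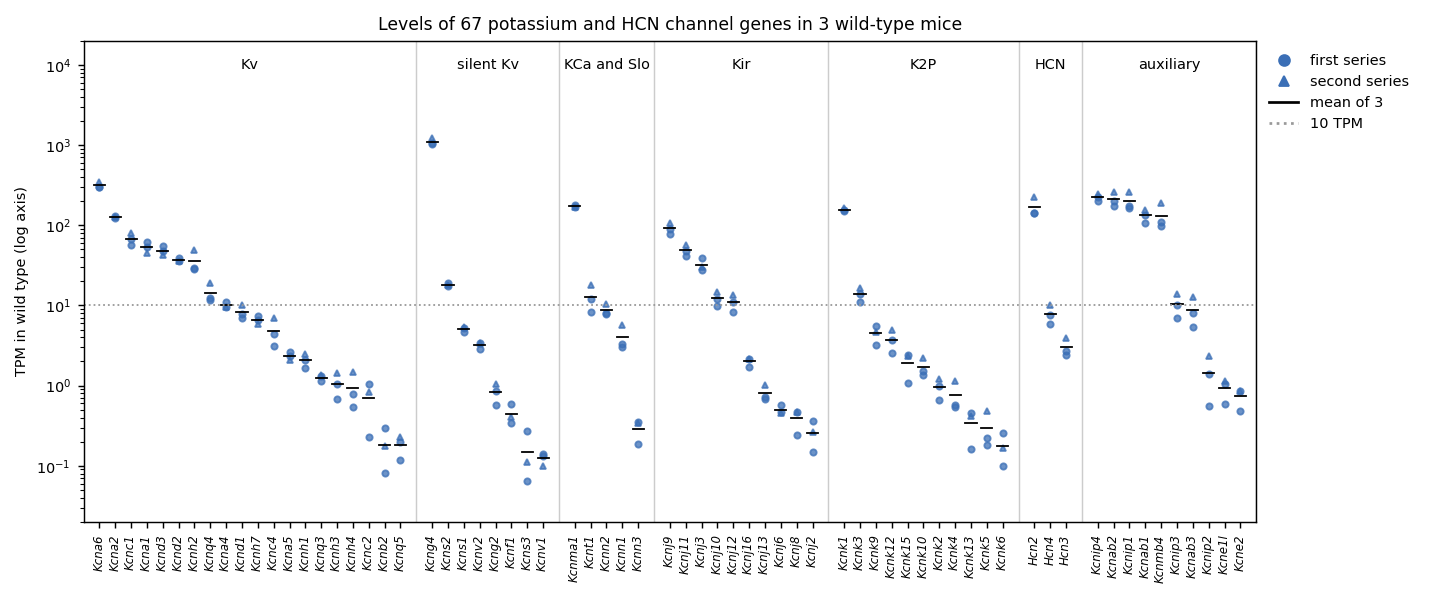
Level of each of the 67 channel genes in the 3 wild-type mice, in TPM on a log axis, grouped by family (circles, first series; triangles, second series; black line, mean). Kcng4 is the only gene plotted above 1000 TPM, and each family spans 2 or more orders of magnitude except HCN.

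Within most families 1 gene led. Among K2P channels Kcnk1 (157 ± 7.71 TPM) was followed by Kcnk3 (13.7 ± 2.67 TPM) and Kcnk9 (4.5 ± 1.17 TPM). Among Kir channels the G protein-gated subunit gene Kcnj9 (91.9 ± 15.2 TPM) was followed by Kcnj11, the pore of the ATP-sensitive channel (48.8 ± 7.87 TPM), and Kcnj3, another G protein-gated subunit (32.2 ± 6.27 TPM). After Kcnma1, the KCa and Slo family held Kcnt1, a sodium-activated channel (12.7 ± 4.89 TPM), and Kcnn2, an SK channel (8.73 ± 1.5 TPM). Of the other HCN genes, Hcn4 was at 7.88 ± 2.07 TPM. Among Kv genes Kcna2 was at 127 ± 4.52 TPM, and the silent subunits below Kcng4 were Kcns2 (18.1 ± 0.665 TPM) and Kcns1 (5.05 ± 0.388 TPM).

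In nm3888-/- Purkinje cells, 6 of the 65 channel genes tested were lower and 1 was higher than in wild type. The lower genes were Kcnj9, Kcnd1, Kcns2, Kcns1, Kcna2 and Hcn2, and the higher gene was Kcnf1. The threshold was 0.05 for the edgeR quasi-likelihood p, adjusted by Benjamini and Hochberg's method over all 17621 genes tested. That is 9.23% lower and 1.54% higher, where 5.95% of all genes tested were called lower and 2.58% higher. The other 58 genes did not pass, and at an unadjusted p under 0.05 there were 16 lower and 11 higher genes. The share of all genes at that unadjusted cutoff is not given here. No unadjusted count in this text can therefore be read as an excess. By DESeq2, 9 channel genes were lower and 4 higher, where 1268 of all 17025 genes were lower and 815 higher. With each library left out in turn 4 (without wild type 3) to 8 (without mutant 1) genes were lower, and 0 (without wild type 1 or 3) to 2 (without mutant 1 or 2) were higher. With sex from the labels in place of the series Kcnd1 alone was called. In that fit only 17 of all 17621 genes were called higher and 85 lower. The median log2 fold change (mutant minus wild type) of the 65 genes was 0.05, and that of all genes 0.03. In these pulldowns from whole cerebellum, fewer cells of a type and less RNA per cell cannot be told apart.

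The 6 lower calls included 4 genes at 10 TPM or more in wild type. That level came from the same wild-type libraries as the fold change, so level and fold change are not independent. Of the 26 genes at 10 TPM or more in wild type, 4 (15.4%) were lower and 0 were higher by edgeR. At an unadjusted p under 0.05 these were 11 and 3 genes, and DESeq2 called 6 lower and 0 higher. The median log2 fold change of the 26 genes was -0.20, with 19 values below zero and 7 above. All 8725 genes of that level had a median of -0.04, with 8.54% lower and 1.81% higher. Of the 39 tested channel genes under 10 TPM, 2 (5.13%) were lower and 1 (2.56%) was higher by edgeR, with a median of 0.29. At an unadjusted p under 0.05 there were 5 lower and 8 higher, and DESeq2 called 3 lower and 4 higher. All 8896 genes of that level had a median of 0.12, with 3.42% lower and 3.34% higher. The median of the 26 genes was negative in each mutant against the wild type of its own series, from -0.30 in mutant 4 to -0.10 in mutant 3.

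**Figure D2:**
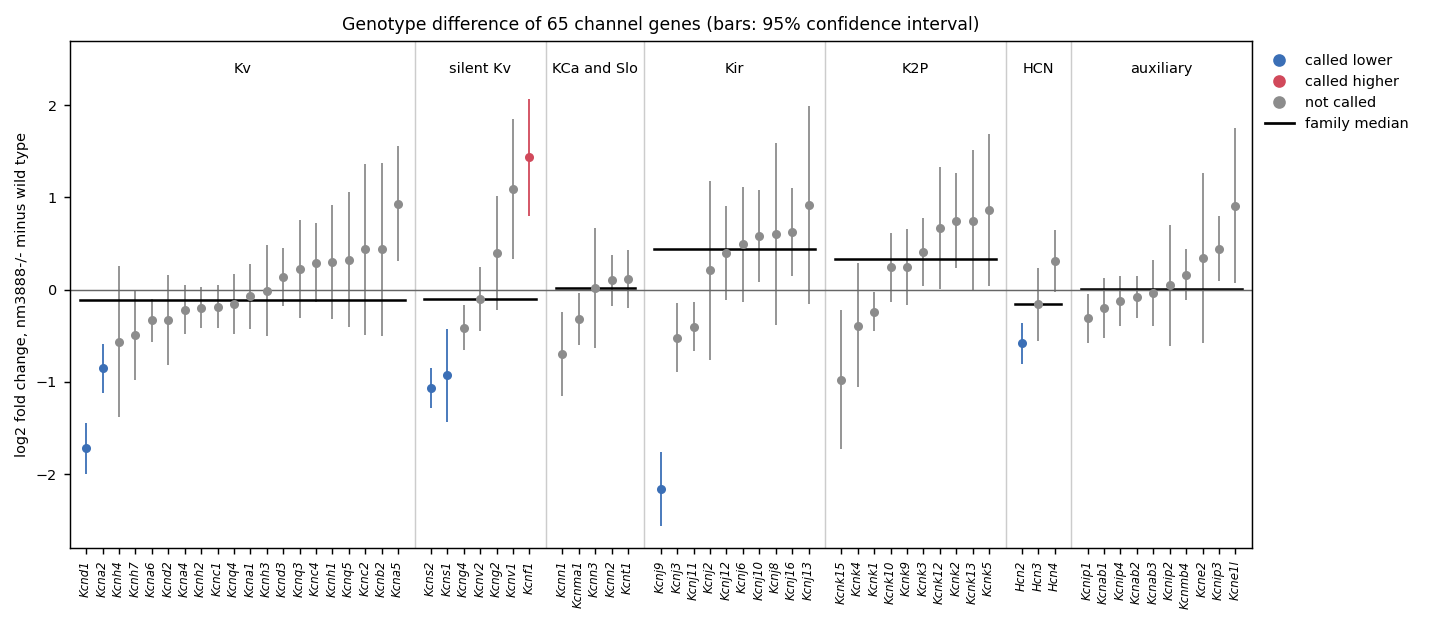
Log2 fold change (mutant minus wild type) of the 65 tested channel genes with its 95% confidence interval, by family, with the family median as a black line. Kcnj9 and Kcnd1 stand lowest, Kcnf1 is the single gene called higher, and the medians of the Kir and K2P families lie above zero at 0.45 and 0.33.

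The sequence before the start site was compared for the 3 called genes at 10 TPM or more whose windows RefSeq gave (build GRCm38.p6), to show what these promoters hold. Kcns2 and Kcnd1 had no window. The 250 bases before each start are given 5′ to 3′ on the gene's strand. Capitals mark the letters ACCACCC, a stretch of the binding motif known for RREB1, or their reverse complement GGGTGGT. Kcnj9 (chr1:172329323-172329572, minus strand), Kcna2 (chr3:107101317-107101566, plus strand) and Hcn2 (chr10:79716384-79716633, plus strand) read as follows.
Kcnj9: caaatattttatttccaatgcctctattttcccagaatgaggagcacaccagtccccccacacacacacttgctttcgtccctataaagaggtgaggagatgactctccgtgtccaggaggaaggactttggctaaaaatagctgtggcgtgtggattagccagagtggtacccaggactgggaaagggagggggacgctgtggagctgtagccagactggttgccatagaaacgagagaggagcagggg
Kcna2: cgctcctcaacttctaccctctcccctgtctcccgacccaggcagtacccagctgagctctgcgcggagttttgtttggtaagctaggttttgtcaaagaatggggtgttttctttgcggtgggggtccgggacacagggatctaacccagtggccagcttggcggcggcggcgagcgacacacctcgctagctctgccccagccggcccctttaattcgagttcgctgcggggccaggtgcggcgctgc
Hcn2: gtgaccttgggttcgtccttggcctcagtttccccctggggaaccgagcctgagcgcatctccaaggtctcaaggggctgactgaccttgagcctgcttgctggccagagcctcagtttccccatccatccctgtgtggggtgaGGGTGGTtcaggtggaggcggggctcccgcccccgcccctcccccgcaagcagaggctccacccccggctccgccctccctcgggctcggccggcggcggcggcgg

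Of these, the window of Hcn2 held 1 match and those of Kcnj9 and Kcna2 held 0. The windows of Kcns1 and Kcnf1, the other called genes with one, held 0 as well. Over all RefSeq promoters given, 3.92% of 32851 windows held a match on either strand, and 6.85% of the 73 windows of channel genes did. GC content was 52% in Kcnj9, 62.4% in Kcna2 and 70.4% in Hcn2, and the median over all windows was 52.4%. No match says only that these letters are not in the window, and whether RREB1 binds there was not tested here. The paper mapped tagged RREB1 in Purkinje cells by chromatin immunoprecipitation, and its peaks were not compared with these windows. The motif enriched in those peaks was, by the paper, much like that of NEUROD1, and it was not searched for here.

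Kcnj9, which encodes the G protein-gated inward rectifier subunit GIRK3, fell the most. Its level was 141, 130 and 130 CPM in wild types 1 to 3, and 38.6, 23.1, 32.3 and 24.3 CPM in mutants 1 to 4. All 4 mutants lay below all wild types. This is 4.48-fold lower (log2 fold change -2.16, SE 0.18, edgeR adjusted p = 0.000198). GIRK channels open when inhibitory receptors such as GABA-B release G protein subunits, and GIRK3 assembles with other GIRK subunits. Its partner Kcnj3 was at 75, 55.3 and 43.7 CPM in wild types and 36.2, 42.3, 42.1 and 33.9 CPM in mutants, without overlap. It was not called by edgeR (log2 fold change -0.52, SE 0.16, edgeR adjusted p = 0.0919), whereas DESeq2 called it lower. Kcnj6 was low in both genotypes (0.985 to 1.62 CPM in wild types, 1.33 to 2.26 CPM in mutants). In the summed TPM of the 3 GIRK genes, Kcnj9 held 69.2 to 78.1% in wild types and 39.3 to 55.7% in mutants, and the sum itself was 106 to 138 TPM in wild types and 37.6 to 67.9 TPM in mutants.

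In build mm10 the Kcnj9 gene spans chr1:172320501-172329318 on the minus strand. In a window that holds it, from 170 to 180 Mb, 11 of 88 genes tested were called higher (12.5%) and 5 lower (5.68%). The share of higher calls there was above the 2.58% of all genes. That of lower calls, which include Kcnj9, was near the 5.95% of all genes. Its neighbour Kcnj10, the inward rectifier of glia, was at 20.8 to 23.9 CPM in wild types and 20.1 to 45.7 CPM in mutants and was not called (log2 fold change 0.58, SE 0.22, edgeR adjusted p = 0.148). Which strain's copy of this region each mouse carried was not tested.

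Of the 10 Kir genes Kcnj9 alone (10%) was called by edgeR, where 5.95% of all genes tested were lower and 2.58% higher. At an unadjusted p under 0.05 there were 3 lower and 2 higher, and DESeq2 called 2 lower and 1 higher. Kcnj11 was at 64.6, 59 and 58.7 CPM in wild types and 55.7, 42.6, 38.7 and 44.3 CPM in mutants. All mutants were below all wild types, but the difference missed the threshold (log2 fold change -0.40, SE 0.12, edgeR adjusted p = 0.076). Kcnj16, a glial partner of Kcnj10, lay above all wild types in all mutants (2.37 to 3.12 against 3.25 to 4.82 CPM). It was likewise not called by edgeR (log2 fold change 0.63, SE 0.21, edgeR adjusted p = 0.107), whereas DESeq2 called it higher. The 7 genes other than Kcnj9, Kcnj3 and Kcnj11 all had positive fold changes, each at 12.2 TPM or less in wild type. Kcnj10 and Kcnj16 are channels of glia. Of 10 markers of Bergmann glia and astrocytes 2 were called higher and 1 lower, with a median log2 fold change of 0.61. Fold changes were positive for 9 of them and negative for 1, Hopx, the marker called lower. Their summed level was 405 to 713 TPM in wild types and 341 to 642 TPM in mutants. Hopx alone held 285 to 577 TPM of it in wild types and 228 to 333 TPM in mutants. None of these 10 markers was at 0 in any library, and their part in the result was not tested.

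Among the Kv genes 2 of 20 (10%) were lower and 0 were higher by edgeR, where 5.95% of all genes tested were lower and 2.58% higher. At an unadjusted p under 0.05 there were 4 lower and 1 higher, and DESeq2 called 2 lower and 1 higher. Kcnd1, which encodes the A-type subunit Kv4.1, was at 14.9, 14.4 and 15.1 CPM in wild types and 4.98, 4.23, 4.57 and 4.25 CPM in mutants. The groups lay far apart, with little spread within each. It was 3.29-fold lower (log2 fold change -1.72, SE 0.12, edgeR adjusted p = 8.89e-05). Kcnd1 is on the X chromosome, and mutants 3 and 4 were male. Within the all-female first series the log2 fold change was -1.68 (edgeR adjusted p = 0.00384). Its relatives did not follow: Kcnd3, at 114 to 194 CPM in wild types and 135 to 215 CPM in mutants, had a log2 fold change of 0.14 (SE 0.14, edgeR adjusted p = 0.583), and Kcnd2 one of -0.33 (SE 0.21, edgeR adjusted p = 0.393). Kcnd1 was the least of the 3 Kv4 genes in level, with 7.56 to 11.5% of their summed TPM in wild types and 2.29 to 3.8% in mutants.

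Kcna2 encodes Kv1.2, a low-threshold channel of axons and dendrites. Its level was 535, 609 and 423 CPM in wild types and 267, 330, 276 and 237 CPM in mutants. The highest mutant was below the lowest wild type. It was 1.81-fold lower (log2 fold change -0.85, SE 0.12, edgeR adjusted p = 0.00292). Kv1 channels are tetramers that may mix subunits, and the other Kv1 genes were not called by edgeR. Kcna1 was at 94.6, 115 and 59.8 CPM in wild types and 75.4, 102, 75.2 and 60.6 CPM in mutants, with overlap (log2 fold change -0.07, SE 0.16, edgeR adjusted p = 0.821). Kcna6, the highest Kv1 gene, was at 577 to 700 CPM in wild types and 392 to 599 CPM in mutants (log2 fold change -0.33, SE 0.10, edgeR adjusted p = 0.0809). Kcna5, the least of them, lay higher in all mutants (1.67 to 2.93 against 3.25 to 5.2 CPM) but was not called by edgeR (log2 fold change 0.93, SE 0.27, edgeR adjusted p = 0.074), whereas DESeq2 called it higher (adjusted p = 0.0102). Kcna2 thus held 24 to 25.9% of the summed Kv1 level in wild types and 16.1 to 21.3% in mutants.

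The other Kv genes described here did not pass the test. Kcnc1, which encodes Kv3.1, was at 231, 205 and 213 CPM in wild types and 190, 190, 212 and 170 CPM in mutants (log2 fold change -0.18, SE 0.10, edgeR adjusted p = 0.331). Mutant 3 lay within the wild-type range and the others below it. Kcnq3, a subunit of the M-type channel that damps repeated firing, was at 1.26 ± 0.103 TPM in wild type (log2 fold change 0.22, SE 0.23, edgeR adjusted p = 0.613). Kcnq5, of the same family, was at 0.356 to 0.553 CPM in wild types and 0.438 to 0.819 CPM in mutants (log2 fold change 0.33, SE 0.32, edgeR adjusted p = 0.587).

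**Figure D3:**
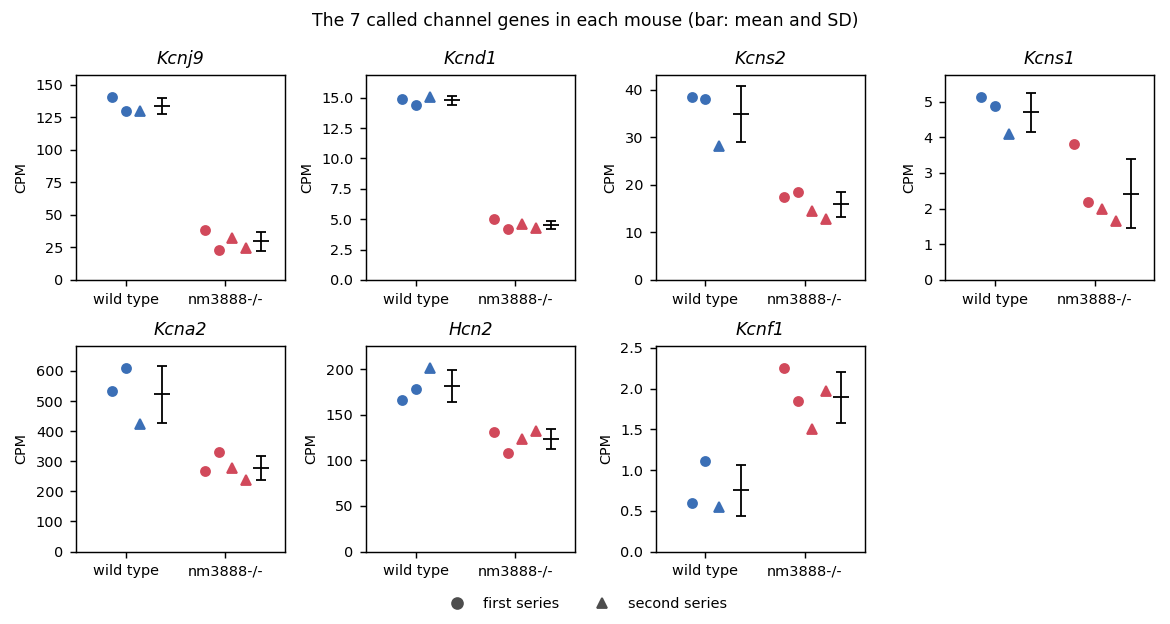
Level in CPM of the 7 called genes in each mouse, with wild types in blue, mutants in red, the first series as circles, the second as triangles and the mean with SD in black. In all 7 panels the 4 mutants do not overlap the 3 wild types.

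Of 7 tested silent Kv subunits 2 (28.6%) were lower and 1 (14.3%) was higher by edgeR, where 5.95% of all genes tested were lower and 2.58% higher. At an unadjusted p under 0.05 there were 3 lower and 2 higher, and DESeq2 called 3 lower and 1 higher. Kcns2, a modifier of Kv2 channels, was at 38.6, 38 and 28.2 CPM in wild types and 17.4, 18.6, 14.6 and 12.9 CPM in mutants. It was 2.1-fold lower without overlap (log2 fold change -1.07, SE 0.10, edgeR adjusted p = 0.000333). Kcns1, of the same group, was at 5.14, 4.87 and 4.08 CPM in wild types and 3.82, 2.18, 2 and 1.66 CPM in mutants (log2 fold change -0.93, SE 0.22, edgeR adjusted p = 0.0365). Mutant 1 lay closest to the wild types. Leaving out any library but mutant 1 ended this call (edgeR adjusted p = 0.0668 to 0.263). Under a replicate block, which uses the mouse number instead of the series, the edgeR adjusted p was 0.0777. Mutant 4 has no same-numbered wild type, so it adds nothing to the genotype difference in that block. Kcnf1, also a silent subunit, was the gene called higher. It was at 0.593, 1.11 and 0.546 CPM in wild types and 2.25, 1.85, 1.5 and 1.97 CPM in mutants, from 15 to 89 counts per library (log2 fold change 1.44, SE 0.28, edgeR adjusted p = 0.0149). Without wild type 1 its edgeR adjusted p was 0.054, and without wild type 3 it was 0.133.

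Kcng4, by far the highest silent subunit gene, came next to the threshold. Its level was 1440, 1550 and 1280 CPM in wild types and 1210, 1160, 790 and 997 CPM in mutants. All mutants lay below all wild types, at a log2 fold change of -0.41 (SE 0.11, edgeR adjusted p = 0.0514), and DESeq2 called it lower (adjusted p = 0.0319).

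Of the 3 HCN genes reported, Hcn2 alone was called, as lower, where 5.95% of all genes tested were lower. DESeq2 called Hcn2 too. Its level was 166, 178 and 201 CPM in wild types and 131, 108, 123 and 132 CPM in mutants, without overlap. The difference was 1.5-fold (log2 fold change -0.58, SE 0.10, edgeR adjusted p = 0.00826), and without wild type 3 the edgeR adjusted p was 0.0845.

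**Figure D4:**
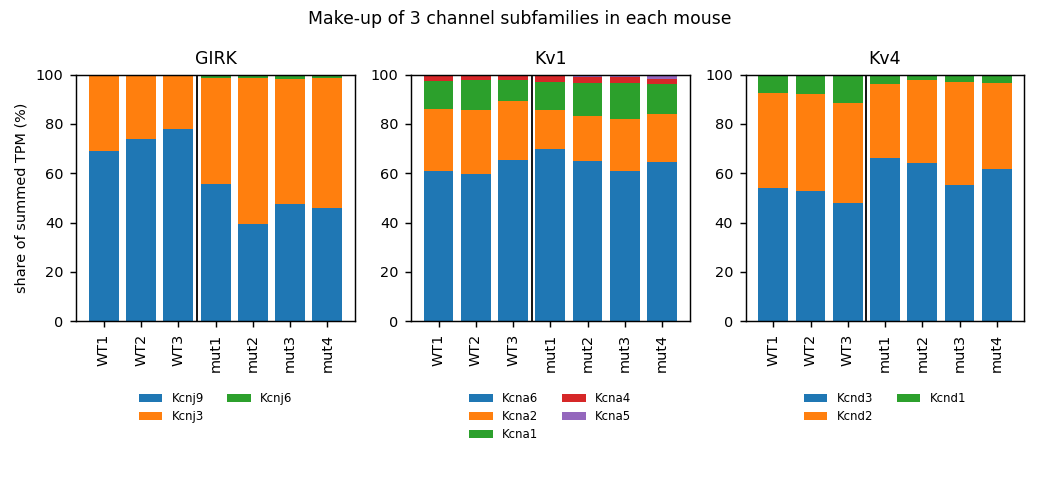
Share of each gene in the summed TPM of its subfamily in each mouse (WT, wild type; mut, nm3888-/-), for GIRK, Kv1 and Kv4. The shares of Kcnj9, Kcna2 and Kcnd1 are lower in all 4 mutants than in all 3 wild types.

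Of 5 KCa and Slo genes 0 were called by edgeR, with 2 lower at an unadjusted p under 0.05 and 1 lower by DESeq2. Kcnma1 was at 1120, 1110 and 796 CPM in wild types and 704, 926, 764 and 706 CPM in mutants. Wild type 3 lay within the range of the mutants (log2 fold change -0.32, SE 0.13, edgeR adjusted p = 0.163). Its auxiliary subunit Kcnmb4 was at 133, 127 and 175 CPM in wild types and 182, 147, 157 and 174 CPM in mutants (log2 fold change 0.16, SE 0.12, edgeR adjusted p = 0.467). Kcnn2, the SK channel of Purkinje cells, was at 21.2, 23.2 and 21.9 CPM in wild types and 20.1, 25.4, 26.6 and 23.1 CPM in mutants (log2 fold change 0.10, SE 0.12, edgeR adjusted p = 0.663). Its low-level relative Kcnn1 lay below all wild types in all mutants (5.46 to 7.34 against 3.31 to 4.93 CPM). It was not called by edgeR (log2 fold change -0.70, SE 0.20, edgeR adjusted p = 0.069), whereas DESeq2 called it lower.

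Of 10 tested K2P genes 0 were called by edgeR, with 4 higher and 2 lower at an unadjusted p under 0.05 and 1 higher by DESeq2. Of 10 auxiliary subunits 0 were called by edgeR or DESeq2, with 2 higher and 1 lower at an unadjusted p under 0.05. Kcnk1, the leading K2P gene, was at 103 to 130 CPM in wild types and 81.7 to 109 CPM in mutants (log2 fold change -0.24, SE 0.09, edgeR adjusted p = 0.161). Kcnk2, a mechanically gated leak channel at 0.951 TPM in wild type, was the K2P gene without overlap (1.27 to 1.78 against 1.91 to 3.39 CPM). It was not called by edgeR (log2 fold change 0.75, SE 0.23, edgeR adjusted p = 0.0809), whereas DESeq2 called it higher. The auxiliary subunits of Kv1 and Kv4 channels at high level did not pass the test. Kcnab1, a Kv beta subunit, was at 554, 470 and 482 CPM in wild types and 340, 504, 460 and 449 CPM in mutants, with mutant 2 within the wild-type range and the other mutants below it (log2 fold change -0.20, SE 0.14, edgeR adjusted p = 0.442). Kcnip1, a calcium-binding partner of Kv4, was at 384, 422 and 463 CPM in wild types and 327, 390, 302 and 346 CPM in mutants, where again mutant 2 alone reached the wild-type range (log2 fold change -0.31, SE 0.12, edgeR adjusted p = 0.148). The low-level genes Kcnip3 (log2 fold change 0.44, edgeR adjusted p = 0.119) and Kcne1l (0.91, adjusted p = 0.177) were above all wild types in all mutants.

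Counted by overlap alone, the 4 mutants lay below the 3 wild types for 10 channel genes and above them for 6 of 65. Of all genes tested, 8.92% lay below and 5.16% above in this way. For all 7 called genes, each of the 4 mutants moved the called way against the wild type of its own series.

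Proteins that accompany or anchor these channels but carry other symbols were counted from a list of 26, of which 24 were tested. In this list 4 (16.7%) were lower and 2 (8.33%) were higher by edgeR, against 5.95% and 2.58% of all genes tested, with a median log2 fold change of -0.17. At an unadjusted p under 0.05 there were 8 lower and 4 higher, and DESeq2 called 7 lower and 2 higher. Cntnap2, which encodes Caspr2, the protein that clusters Kv1 channels beside the nodes of axons, was at 78.2, 75.8 and 63.5 CPM in wild types and 9.22, 9.09, 17.7 and 10.4 CPM in mutants. It was 6.53-fold lower without overlap (log2 fold change -2.71, SE 0.23, edgeR adjusted p = 0.000263), more than any channel gene. Dlg4, which encodes the scaffold PSD-95, was 2.32-fold lower (log2 fold change -1.22, SE 0.10, edgeR adjusted p = 0.000163). Adam23, a partner of LGI proteins in the Kv1 complex, was 2.05-fold lower (log2 fold change -1.04, SE 0.11, edgeR adjusted p = 0.0009), and Amigo1, a partner of Kv2, 1.28-fold lower (log2 fold change -0.36, SE 0.09, edgeR adjusted p = 0.0481). Dlg1, another scaffold of the family of PSD-95, was 1.85-fold higher (log2 fold change 0.89, SE 0.15, edgeR adjusted p = 0.00732). Abcc9, a subunit of ATP-sensitive channels that is also abundant in mural cells, was higher as well (log2 fold change 1.47, SE 0.36, edgeR adjusted p = 0.0383) from 30 to 172 counts per library. Leaving out single libraries ended the call of Amigo1 (highest edgeR adjusted p = 0.283, without wild type 3), Abcc9 (0.21, without wild type 3) and Dlg1 (0.0722, without wild type 3). Of 10 endothelial and mural markers 0 were called by edgeR (3 higher at an unadjusted p under 0.05, 2 by DESeq2), none was at 0 in any library, and their summed level was 27.6 to 38.7 TPM in wild types and 35.9 to 75.4 TPM in mutants; its part in the result was not tested.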

How the data were processed

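Ribosome-bound RNA from 3 wild-type and 4 nm3888-/- cerebella was sequenced after immunoprecipitation of HA-tagged ribosomes. Reads were deduplicated and trimmed with fastp, aligned to mm10 and counted as read pairs per gene (featureCounts 2.0.1 per the file headers, GENCODE M25, reverse strand). The deposited values are raw counts that the authors did not normalize. By the headers, alignments were in a folder of Bowtie2 (first series) or STAR (second series), whereas the methods name Bowtie2. Gene symbols were matched by identifier for 55141 of 55401 genes.

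Genotypes were compared with edgeR's quasi-likelihood test (edgeR 4.0.16, limma 3.58.1, R 4.3.3) on TMM-scaled counts. Library series was a term. The 17621 genes that passed filterByExpr were tested, and an adjusted p (Benjamini-Hochberg) under 0.05 was called. CPM used the TMM-scaled library size, and TPM the counts and the exon lengths of the files. The test was checked on simulated counts. DESeq2 1.42.0 and other filters, scalings, batch terms and subsets of libraries were alternatives. Nothing in the labels says that same-numbered mice were related. Deviations from the group means correlated at 0.92, 0.946 and 0.957 between same-numbered libraries, which share a series. Within the first series, the difference of wild type 1 from wild type 2 correlated at 0.0385 with that of mutant 1 from mutant 2. Same-numbered mice thus shared little variation within that series.

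Every called gene is named. Values per mouse are given for called genes and for channels well known in Purkinje cells, and the highest of each family are named. Some genes that meet the rule are not reported here. Other genes named by their lack of overlap, or as partners or relatives of called genes, were chosen after their values were seen. The genes and lists were chosen with earlier results of these data known. Depth (18023017 to 107937386 counts) limits genes under 1 TPM.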

Additional observations from a re-analysis of the deposited data

Results flagged for a closer look

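In a group of 4 mutants, 3 of the 65 tested channel genes had 1 library far from the other 3, all of them in mutant 3 (by Dixon's test of the gap over the range). Chance flags about 1 in 20 groups, so 3 of 65 is about the number that chance gives. Kcnj12, an inward rectifier, was at 20.9 CPM in mutant 3 and 11.2 to 12.1 CPM in the other mutants. Kcne1l, an auxiliary subunit on the X chromosome, was at 1.58 CPM in mutant 3, a male, and 0.656 to 0.797 CPM in the others, which included the male mutant 4. Kcng2, a silent Kv subunit, was at 0.758 CPM in mutant 3 and 1.19 to 1.26 CPM in the others. None of these 3 genes was called between genotypes by edgeR. Mutant 3 also had the highest summed level of granule cell markers (820 TPM, against 250 to 379 TPM in the other mutants), and the part of other cells in these values was not tested.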

How the results depend on the processing

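Of the 7 called genes, Kcnd1 stayed called under all 16 alternatives, Kcnj9 and Kcns2 under 15, Kcna2 under 14, Hcn2 and Kcnf1 under 11 and Kcns1 under 4, and none changed direction. The channel genes called higher and lower were 4 and 9 by DESeq2. With no filter on low counts they were 3 and 11 (all genes, 731 and 1329 of 30710). In the first series alone they were 0 and 4 (all genes, 191 and 488 of 17048). The second series alone was fitted with its lone wild type assumed to vary like the mutants. With no batch term there were 0 and 3 (all genes, 58 and 251 of 17621). With sex in place of the series there were 0 and 1 (all genes, 17 and 85 of 17621). At an adjusted p under 0.01 there were 0 and 5 (all genes, 142 and 496 of 17621). At an adjusted p under 0.1 there were 4 and 11 (all genes, 894 and 1557 of 17621). With the replicate block in place of the series there were 1 and 5 (all genes, 241 and 571 of 17621). Kcns1 was lost and no other call changed. Mutant 4, without a same-numbered wild type, adds nothing to the genotype difference in that fit. Leaving out each library in turn gave 0 to 2 higher and 4 to 8 lower. The median log2 fold change of the channel genes, 0.05, was -0.023 in the first series alone, 0.189 in the second series alone, 0.109 with no batch term, 0.002 with sex in place of the series, -0.016 with thinned counts and 0.083 with the replicate block, and -0.017 (without wild type 3) to 0.211 (without wild type 1) with a library left out. The same 7 genes were called with size factors in place of TMM, and 6 of them with counts thinned to the smallest total. Over all 17025 genes with an adjusted p, DESeq2 called 815 higher and 1268 lower. The causes of these changes were not tested. Sex and genotype cannot be told apart within the second series, and the series differ in aligner.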
